A study of Mus musculus with 127 samples.

Results

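The transcripts of 5 blood genes were followed through RNA-seq of mouse cortex and of cell fractions made from it: the adult alpha-globin genes Hba-a1 and Hba-a2, the adult beta-globin genes Hbb-bs and Hbb-bt, and Alas2. The genes were taken by name from the 54838 gene rows of the deposited count tables, and all 5 passed the filter on low counts in each comparison below. The series profiled poly(A) RNA of the cortex of Chd8 mutant and control mice at about 60 days of age, Chd8 being a chromatin remodeller linked to autism. Brains were taken after cervical dislocation, and the protocol mentions no perfusion. Frozen cortices were used whole or were separated with commercial reagents into cytosolic, synaptic and nuclear fractions.

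In the germline line, heterozygotes (HET) carried 1 Chd8 allele with a small deletion (Chd8+/5bpdel) and were set against wild-type littermates (WT). Whole cortex gave 15 WT and 16 HET libraries, the nuclear fraction 12 and 9, the synaptic fraction 11 and 7, and the cytosolic fraction 5 and 7 of the libraries analysed. In the conditional line a floxed Chd8 allele was combined with Cre recombinase under the Camk2a promoter, which is active in excitatory neurons of the forebrain. Conditional whole cortex compared 8 libraries titled Chd8+/flox without Cre with 6 titled Chd8+/flox with Camk2a-Cre. The protocol text describes these groups differently, and the titles were followed. In the conditional fractions every group carried Camk2a-Cre, the controls included. The nuclear fraction had 4 libraries with unfloxed Chd8 (Chd8+/+, called WT here), 6 labelled heterozygous for the floxed allele (HET) and 3 homozygous for it (HOM), and the synaptic fraction had 4, 5 and 5. No label names the strain.

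Haemoglobin is built from alpha-globin and beta-globin chains, each of which holds a haem group, the iron compound that binds oxygen. Alas2 is the erythroid form of the enzyme that begins haem synthesis. Red blood cells of mammals have lost their nucleus, while young ones, the reticulocytes, still carry globin mRNA, so these transcripts are common in RNA from tissue that still holds blood. Globin transcripts have also been described at low levels in some neurons and glia.

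All 4 globin genes lie in clusters of related copies, and the copies are close to identical, which bears on how reads can be divided between them. In GRCm38 with GENCODE M21 annotation, Hba-a1 (ENSMUSG00000069919) lies at chr11:32283511-32284465 and Hba-a2 (ENSMUSG00000069917) at chr11:32296489-32297298, both on the plus strand with 12023 bases between them. Hbb-bt (ENSMUSG00000073940) lies at chr7:103812524-103813996 and Hbb-bs (ENSMUSG00000052305) at chr7:103826534-103828096, both on the minus strand with 12537 bases between them. Each globin gene has 3 exons in its first annotated transcript. The alpha coding sequences have the same length and differ at 1 base, C381T from Hba-a1 to Hba-a2, counted from the first base of the start codon. It is the third base of codon 127. The beta coding sequences, of 444 bases each, also differ at 1 base, C417T from Hbb-bs to Hbb-bt, the third base of codon 139. The stretches around the differing base, given in capitals, show how little of the coding sequence tells the copies apart.
Hba-a1: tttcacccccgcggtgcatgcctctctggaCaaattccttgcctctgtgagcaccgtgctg
Hba-a2: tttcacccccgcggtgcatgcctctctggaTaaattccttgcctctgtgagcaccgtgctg
Hbb-bs: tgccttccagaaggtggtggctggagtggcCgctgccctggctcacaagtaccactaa
Hbb-bt: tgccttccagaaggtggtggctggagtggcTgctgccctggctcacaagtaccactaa

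Of the 150-base windows of the first transcript, the length of 1 read, 48.4% of those of Hba-a1 and 65.7% of those of Hba-a2 occur letter for letter in the other alpha copy. For the beta copies the shares are 58.7% of Hbb-bs and 50.7% of Hbb-bt. These shares depend on the annotated transcript starts. The coding sequence begins at base 197 of the first transcript in Hba-a1, 36 in Hba-a2, 54 in Hbb-bs and 128 in Hbb-bt. The sources used here do not say how reads that match both copies were counted, so the division of counts between copies is uncertain, and the sums over both copies are given beside the single genes. Alas2 (ENSMUSG00000025270, 11 exons) lies at chrX:150547375-150570638 on the plus strand, wholly within the span of the gene Apex2 on the other strand, and part of its 2403 exon bases is also exon of Apex2. Without a strand setting, reads on those shared bases cannot be assigned to either gene.

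To describe the genes further, 30 bases of each RefSeq promoter (GRCm38.p6) are shown in the direction of transcription. Matches to short motifs of erythroid and general promoters are in capitals. RefSeq starts differ from the GENCODE gene spans, so the stretches of Hba-a1 and Hbb-bs lie inside those spans and that of Hbb-bt partly so. They come from chr11:32283570-32283599 (plus), chr11:32296387-32296416 (plus), chr7:103827989-103828018 (minus), chr7:103813983-103814012 (minus) and chrX:150547317-150547346 (plus), in the order of the lines.
Hba-a1: caagcacaaaccagCCAATgagaactgctc
Hba-a2: caagcacaaaccagCCAATgagaactgctc
Hbb-bs: CACCCtggtaagggCCAATctgctcacaca
Hbb-bt: CACCCtggcATTGGCCAATctgctcagaga
Alas2: gactactttgctttTTATCTttagcagagg

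Motifs were searched on both strands in the 110 bases before each start, and they can overlap, as CCAAT and its reverse ATTGG do in Hbb-bt. CCAAT occurred in the 4 globin promoters and in 20.2% of 32851 promoters, and CACCC occurred in all 5 and in 29.6% of promoters. AGATAA, the letters of a GATA factor motif, occurred in Alas2 alone among the members (printed reversed as TTATCT) and in 3.99% of promoters. ATATAA occurred in the 4 globin promoters and in 4.09% of all. The aligned promoters of Hba-a1 and Hba-a2 were identical over 107 bases, while those of Hbb-bs and Hbb-bt shared 80 of 109 bases (73.4%). These matches describe the letters only.

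Library totals ran from 19 to 56.6 M counts (M, mega counts), and from 98.1 to 134.6 M in conditional cortex. The smallest count of a member in any library was 20, for Hba-a2. Chd8 fell with genotype in germline cortex (edgeR log2 fold change −0.58, SE 0.0755, adjusted p = 7.89e-05) and did not pass elsewhere. It was at −0.01 in the germline nuclear HET libraries (edgeR adjusted p = 0.986) and at −0.06 in the conditional nuclear ones (adjusted p = 0.976). The Chd8 counts thus did not show the HET label in either, and those libraries are called labelled HET. Whether an unchanged Chd8 level in nuclear RNA bears on the label was not tested. In the other genotype comparisons Chd8 ran from −0.82 in germline synaptic HET to −0.21 in conditional synaptic HET, with none passing. The germline synaptic HET libraries come in part from the same animals as the nuclear ones. In the germline nuclear fraction WT male 7 and HET female 4 had sex markers against their labels. Among the synaptic libraries, WT males 1 and 2 had a nuclear profile, with 904 and 990.1 CPM (counts per mega count) summed over endothelial genes where the median of that fraction was 147. One conditional animal bore different genotype labels in its nuclear and synaptic libraries and was left out of the paired comparison. The titles number the libraries of a group as biological replicates, and animal numbers tie some of them across fractions.

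Per length of transcript, Hbb-bs was the most abundant member in every experiment, Hba-a1 came next, and Alas2 was the lowest. Levels across experiments are set side by side without a test, since tables, sequencers and batches differed between them. In bulk samples, fewer cells of a type and less RNA per cell cannot be told apart. Hbb-bs, an adult beta-globin gene, had its highest median in conditional cortex, at 168 CPM with a range of 46.9 to 424.8. The germline nuclear fraction followed at 85.0 CPM (42.4 to 153), then the cytosolic fraction at 60.6 (40.1 to 103) and germline cortex at 59.1 (33.9 to 107). Lower still were the conditional nuclear fraction at 38.2 CPM (27 to 74.3), the germline synaptic fraction at 32.9 (14 to 56.1) and the conditional synaptic fraction at 17.1 (10.8 to 31.8). The ranges of neighbours in this order overlapped at every step. The lowest experiment, the conditional synaptic fraction, lay wholly below both cortex sets, the germline nuclear and the cytosolic fractions.

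Hba-a1, an adult alpha-globin gene, followed nearly the same order. Its median was 75.0 CPM in conditional cortex (29.7 to 155), 73.7 in the germline nuclear fraction (36.7 to 137) and 52.5 in germline cortex (31.5 to 115). It was 40.4 CPM in the cytosolic fraction (22.8 to 63), 30.2 in the germline synaptic (11.1 to 51.9), 23.1 in the conditional nuclear (13.3 to 49.5) and 11 in the conditional synaptic fraction (6.19 to 20.6). The 2 synaptic libraries with a nuclear profile held 51.9 and 41.3 CPM, and another synaptic library of the same group held 49.9, so the upper end of that range does not rest on them. Neighbours in the order again overlapped, and the conditional synaptic range lay below both cortex sets, the germline nuclear and the cytosolic fractions.

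Hba-a2, the second alpha copy, departed from that order. Its median was 24.9 CPM in conditional cortex (9.04 to 51.7) and 15.9 in the germline nuclear fraction (10.2 to 37.0), but 5.75 in germline cortex (2.41 to 12.3). It was 4.99 CPM in the germline synaptic fraction (3.75 to 18.8), 4.06 in the conditional nuclear (1.91 to 6.16), 2.33 in the cytosolic (1.0 to 5.55) and 1.09 in the conditional synaptic fraction (0.645 to 2.63). The cytosolic fraction thus stood near the bottom for Hba-a2 and in the middle for Hba-a1.

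Hbb-bt, the second beta copy, had a median of 35.8 CPM in conditional cortex (9.77 to 77.1), 11.3 in the cytosolic fraction (6.98 to 21.1) and 10.8 in the germline nuclear fraction (7.35 to 24.2). It was at 7.20 CPM in the conditional nuclear fraction (4.81 to 15.9), 6.72 in germline cortex (2.95 to 11.3), 3.81 in the germline synaptic (2.02 to 11.6) and 3.39 in the conditional synaptic fraction (1.36 to 6.66). Alas2 varied least between experiments, from a median of 5.95 CPM in conditional cortex (2.54 to 9.96) to 1.64 in the germline synaptic fraction (0.463 to 3.95). Between these stood germline cortex at 4.12, the cytosolic fraction at 3.77, the germline nuclear at 3.14, the conditional nuclear at 2.66 and the conditional synaptic fraction at 1.95 CPM. Ranges of neighbouring experiments overlapped for both genes.

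Per kilobase of exon, the scale on which genes can be compared, Hbb-bs stood at 77 CPM per kilobase in germline cortex (median), Hba-a1 at 64.6, Hbb-bt at 9.56, Hba-a2 at 8.62 and Alas2 at 1.71. In conditional cortex the same order of the first pair was wider, with Hbb-bs at 219 and Hba-a1 at 92.4 CPM per kilobase. Summed over the 4 globin genes, the median ranged from 32.7 CPM in the conditional synaptic fraction to 322 CPM in conditional cortex.

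**Figure D1:**
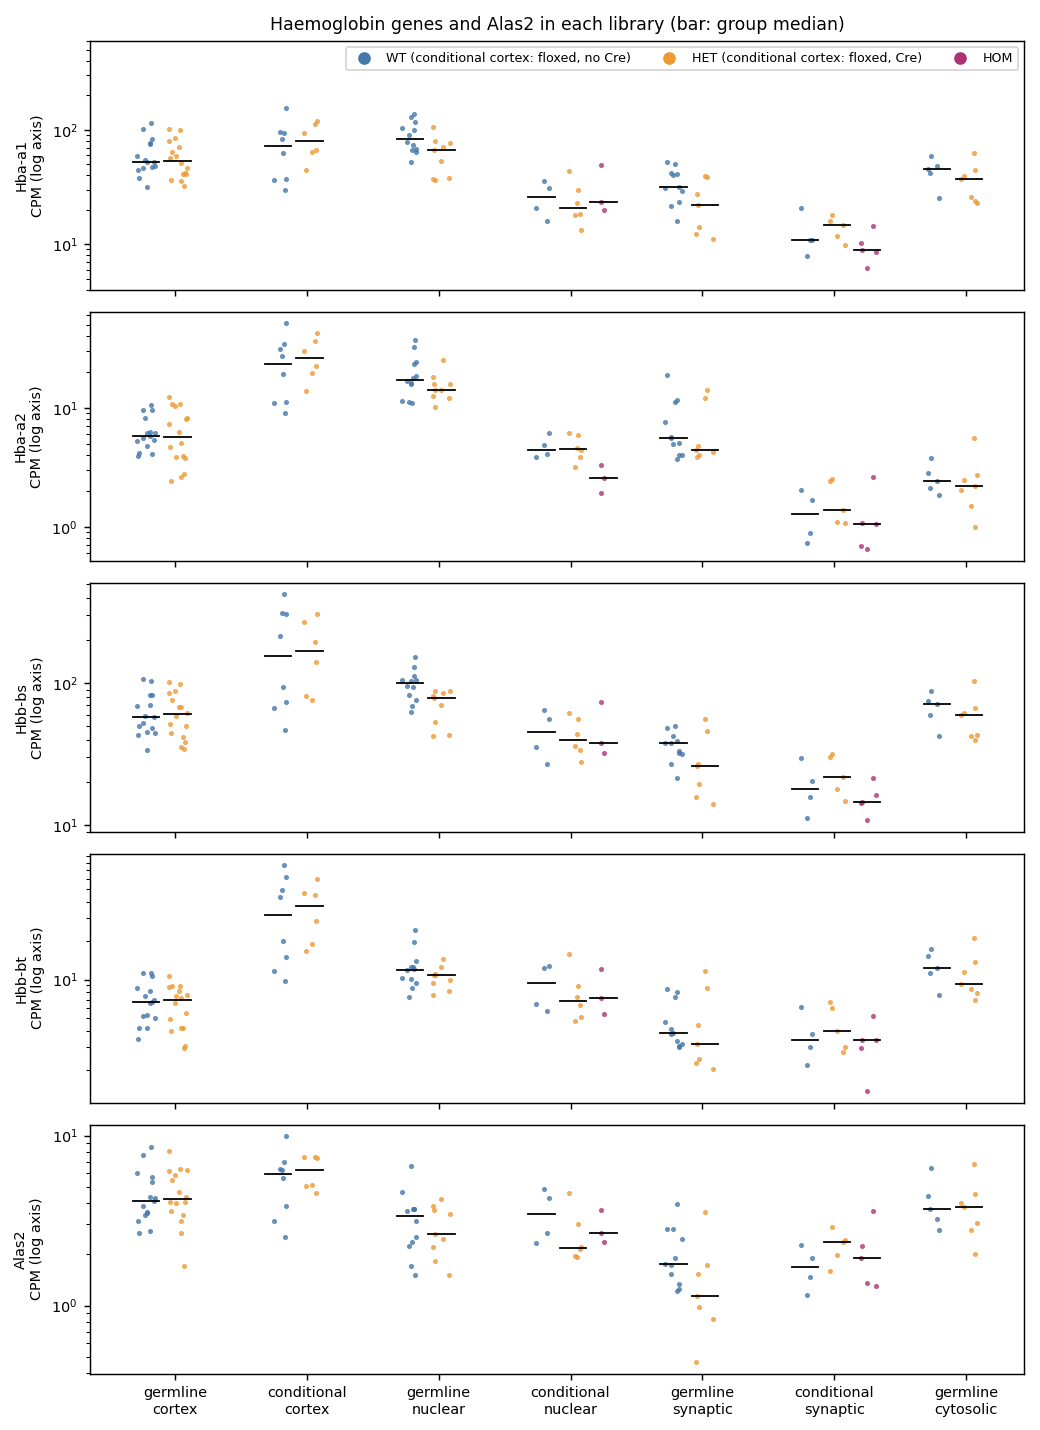
Level of each member in every library (points, CPM on a log axis) for the 7 experiments, coloured by genotype, with the median of each genotype group as a bar. Conditional cortex holds the highest libraries of the 4 globin genes, with Hbb-bs up to 424.8 CPM, and the conditional synaptic fraction the lowest Hba-a1, Hba-a2, Hbb-bs and Hbb-bt values.

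Libraries of 1 experiment differed widely. In conditional cortex the 8 libraries without Cre held 46.9, 66.4, 216, 93.5, 311.5, 305, 424.8 and 73.7 CPM of Hbb-bs, and the 6 with Cre held 76.4, 305, 196, 268, 81.0 and 140.3. High and low libraries occurred in both groups. In germline cortex Hbb-bs spread less, from 33.9 to 107 CPM in WT (median 58.0) and from 34.5 to 102 in HET (median 60.6).

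The copies shared the counts unequally, and the share differed between experiments. Hba-a2 made up 24.4% ± 1.18 of the alpha counts in conditional cortex (mean and SD, n = 14, range 23 to 27), so that each of these libraries gave nearly the same division although their levels spread over several fold. In germline cortex its share was 9.69% ± 2.67 (SD, n = 31, 6.19 to 16.4), in the cytosolic fraction 6.06% (4.05 to 10.6), in the conditional synaptic fraction 10.3% (6.37 to 15.5) and in the conditional nuclear fraction 14.8% (6.33 to 25.1). Conditional cortex did not overlap germline cortex, the cytosolic or the conditional synaptic fraction, and overlapped the conditional nuclear fraction. These tables were counted separately, with featureCounts 1.6.0 for conditional cortex by its header, and the part of the counting in these shares was not tested.

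Batch labels of the germline nuclear and synaptic libraries are strings of digits. They were read here as month and day and grouped by the first date, a reading that the labels do not spell out. Within these fractions the Hba-a2 share moved with the date groups. In the synaptic fraction its mean was 22.6% for labels of March and April (18.2 to 26.6), 21.8% for May (17.8 to 27.6) and 11.6% for June and July (10.9 to 12.2), with no overlap between the last and the other groups. In the nuclear fraction the means were 22.9% (14.2 to 27.4), 22.3% (17.6 to 27.9) and 12.9% (9.92 to 17.2), with overlap of the first and last. Hbb-bt made up 9.59% of the beta counts in germline cortex (6.94 to 12.1), 12.2% in each of the germline synaptic and nuclear fractions, 15.7% in the cytosolic fraction (13.4 to 17) and 16.6% in conditional cortex (13.6 to 19.8). By date its mean was 14.2, 12.8 and 9.18% in the synaptic and 13.1, 13.8 and 9.61% in the nuclear fraction, in the order of the date groups. The lower shares of both second copies thus came from the same batch labels.

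**Figure D2:**
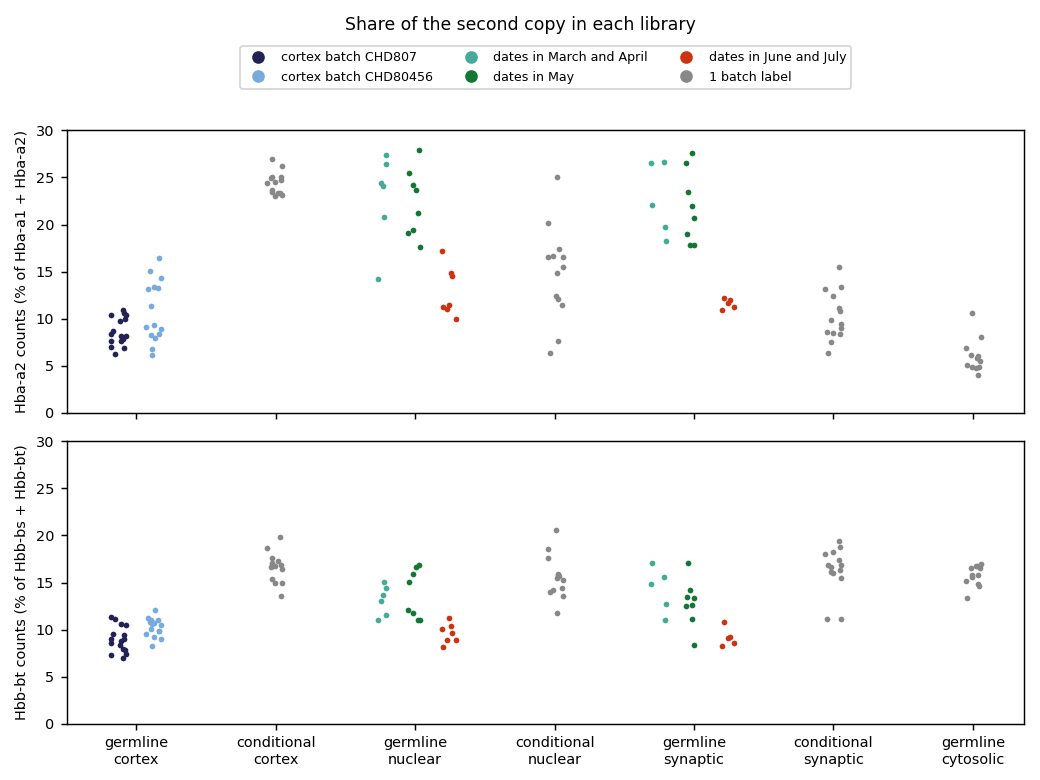
Share of Hba-a2 in the alpha counts and of Hbb-bt in the beta counts of each library (points, percent), by experiment, coloured by batch label in germline cortex and by date group of the batch label in the germline synaptic and nuclear fractions. Conditional cortex stays between 23 and 27% for Hba-a2, and the June and July synaptic libraries lie between 10.9 and 12.2%, below the other date groups of that fraction.

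Alpha and beta counts were near equal in 3 experiments and favoured beta in 4. The ratio of summed alpha to summed beta counts had a median of 0.955 in germline cortex (0.75 to 1.16), 0.956 in the germline synaptic fraction (0.76 to 1.24) and 0.934 in the germline nuclear fraction (0.745 to 1.38). It was 0.561 in the cytosolic fraction (0.502 to 0.621), 0.595 in the conditional synaptic (0.489 to 0.648), 0.553 in the conditional nuclear fraction (0.519 to 0.643) and 0.554 in conditional cortex (0.254 to 0.883). The cytosolic, conditional synaptic and conditional nuclear ranges did not overlap those of the 3 experiments near equality. Those 3 sets of libraries were read on another sequencer, per the labels. They hold both lines, and conditional cortex, which is not among them, also favoured beta. The parts of line, fraction and sequencer in the ratio were not tested. Within a line the ratio did not separate the fractions of the same animals: in the germline pairs it averaged 0.963 in synaptic and 0.964 in nuclear libraries (permutation p = 0.995), and in the conditional pairs 0.582 and 0.57 (permutation p = 0.562).

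**Figure D3:**
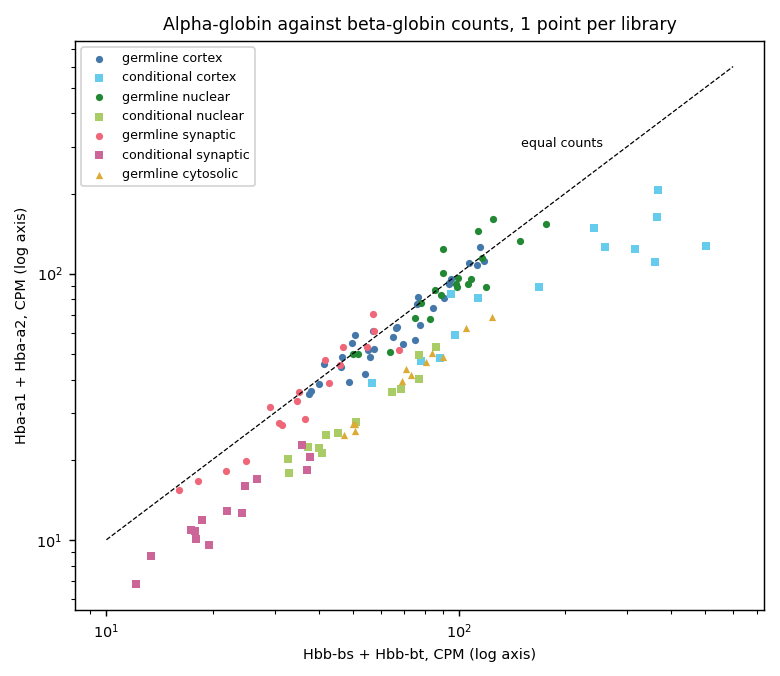
Summed alpha-globin against summed beta-globin level of each library (CPM, both axes logarithmic), marked by experiment, with the line of equal counts. Germline cortex, synaptic and nuclear libraries lie around the line, and cytosolic, conditional synaptic and conditional nuclear libraries lie below it, at ratios of 0.489 to 0.648.

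The members rose and fell together from library to library. Of 28 correlations of Hbb-bs with another member within an experiment, on log2 CPM, 25 had an adjusted permutation p under 0.05. With Hba-a1, Pearson's r was 0.946 in germline cortex (n = 31, Spearman's rho 0.932, both with a permutation p of 1e-05, the smallest that 100000 resamples can give, adjusted 2.15e-05). It was 0.935 without the 2 libraries farthest from the median, and 0.964 and 0.932 within the 2 batch labels of 16 and 15 libraries. Across the other experiments r with Hba-a1 was 0.871 to 0.984, the lowest in the germline nuclear fraction. In that fraction it was 0.968 among the 8 May libraries, 0.893 among the 6 of March and April and 0.694 among the 7 of June and July (exact permutation p = 0.109).

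Hbb-bt, the other beta copy, correlated with Hbb-bs at 0.683 to 0.988. Its lowest r, in the germline nuclear fraction, was 0.757, 0.916 and 0.661 within the May, March and April, and June and July labels. Hba-a2 went with Hbb-bs at 0.625 to 0.916 in 6 experiments, and at 0.412 in the conditional nuclear fraction (n = 13, rho 0.396, permutation p = 0.162, adjusted 0.162). Alas2 was the least regular member. Its r was 0.746 in germline cortex, 0.857 in conditional cortex and 0.913 in the cytosolic fraction. In the germline nuclear fraction it was 0.331 (n = 21, rho 0.375, permutation p = 0.142, adjusted 0.147), with 0.807, −0.446 and 0.564 within the same 3 date groups, and in the conditional synaptic fraction it was 0.539 (n = 14, permutation p = 0.0465, adjusted 0.0501).

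Among 13339 genes with a mean of at least 1 CPM in each experiment, the 4 other members ranked highest in likeness to Hbb-bs. Likeness is the mean over the 7 experiments of Pearson's r after removal of genotype, sex and batch group, and was 0.93 for Hbb-bt, 0.92 for Hba-a1, 0.83 for Hba-a2 and 0.67 for Alas2. The mean for Alas2 hides values of 0.23 in the germline nuclear and 0.33 in the conditional synaptic fraction. The next genes were Mgp, which encodes a matrix protein that inhibits calcification, at 0.59 (0.04 in the conditional synaptic fraction), and Ube2l6, a gene that is abundant in reticulocytes and encodes a conjugating enzyme for the ubiquitin-like protein ISG15, at 0.58. Libraries share depth and dissection, so these values describe the likeness and carry no test.

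Some other genes of red blood cells were at low levels, while others were not. Slc4a1, the anion exchanger of the red cell membrane, had means of 0.0946 to 0.278 CPM across experiments. Epb42, a membrane skeleton protein, had 0.0132 to 0.0573 CPM. Of 10 red cell membrane genes, only Ank1, Tspan33 and Ermap reached a mean of 1 CPM in any experiment. Ank1, an ankyrin that is also made in brain, stood at 51.6 to 83.2 CPM. Tspan33, a tetraspanin, had 12.8 to 43.2 CPM. Klf1 and Gata1, transcription factors of red cell precursors, were at most 0.209 and 0.0475 CPM, and Tal1, a transcription factor of blood and vessel cells, had 0.786 to 5.57 CPM. Of the genes abundant in reticulocytes, Bnip3l stood at 82.9 to 215.8 CPM, Xpo7 at 75.4 to 141.7, Bpgm at 34.5 to 89 and the mitoferrin gene Slc25a37 at 18.7 to 136.3 CPM. Others of that list were low, with Ube2l6 at 3.23 to 8.12, Tent5c at 2.03 to 4.17, Isg20 at 0.241 to 1.84 and Car1 at 0.0378 to 0.173 CPM. Likeness to Hbb-bs was 0.14 for Bnip3l, −0.05 for Xpo7, 0.16 for Bpgm, 0.07 for Slc25a37 and 0.01 for Tent5c, below the value of Ube2l6 given above. The embryonic beta-like genes Hbb-bh0, Hbb-bh1 and Hbb-bh2 were listed at 0 in every experiment, and Hba-x and Hbb-y did not exceed a mean of 0.199 CPM. Alas1, the form of the enzyme used outside the erythroid lineage, stood at 31.7 to 64.8 CPM, far above Alas2 everywhere. Of the other blood cells, platelet genes summed to 2.37 to 13 CPM per library and lymphocyte genes to 19.7 to 84.6 CPM. Neutrophil genes summed to 0.751 to 73.5 CPM, the highest being conditional nuclear WT male 1, where the median of that fraction was 2.84 CPM.

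Synaptic and nuclear libraries of the same animal were compared to see how the blood transcripts divide between the fractions. All 4 globin genes were lower in the synaptic fraction, in both lines. In the 15 germline pairs, Hba-a1 ranged from 36.7 to 137 CPM in the nuclear libraries (median 71.1) and from 11.1 to 51.9 CPM in the synaptic ones, and it was lower in the synaptic library of 15 of 15 animals. The ratio of synaptic to nuclear CPM had a median of 0.329 for Hba-a1 (0.233 to 0.75), 0.346 for Hba-a2 (0.204 to 1.0, lower in 14 of 15), 0.348 for Hbb-bs (0.283 to 0.722, 15 of 15) and 0.343 for Hbb-bt (0.224 to 0.849, 15 of 15). The 4 globin genes thus had nearly the same median ratio. Alas2 had a ratio of 0.424 (0.208 to 1.86) and was lower in 13 of 15 animals, the exceptions being the animals whose synaptic library had a nuclear profile.

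In the 12 conditional pairs, Hba-a1 of the nuclear and synaptic library read 35.4 and 10.9, 30.9 and 20.6, 16.0 and 7.94, and 20.9 and 11 CPM in the 4 WT animals. In the 3 HOM animals it read 19.8 and 8.50, 23.2 and 8.99, and 49.5 and 14.3 CPM. In the 5 HET animals it read 18.2 and 9.76, 43.4 and 17.9, 18 and 14.6, 30 and 15.9, and 23.1 and 11.7 CPM. The synaptic library was the lower one in each animal, while the ranges of the fractions overlapped. Ratios had medians of 0.502 for Hba-a1, 0.378 for Hba-a2, 0.441 for Hbb-bs and 0.471 for Hbb-bt, lower in 12 of 12 animals each. For Alas2 the ratio was 0.629 (0.392 to 1.2), and it was lower in 4 of 4 WT, 3 of 3 HOM and 2 of 5 HET animals.

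In the fit with animal as a block, all 4 globin genes passed in both lines. The germline log2 fold changes of synaptic against nuclear were −0.93 for Hba-a1 (SE 0.106, edgeR adjusted p = 4.06e-07), −0.98 for Hba-a2 (SE 0.132, adjusted p = 2.71e-06), −0.94 for Hbb-bs (SE 0.101, adjusted p = 2.15e-07) and −0.97 for Hbb-bt (SE 0.123, adjusted p = 1.46e-06). Thus 4 of 5 members were called lower, against 42% of 18966 genes called lower and 36.7% called higher, so that a call by itself sets no gene apart in this contrast. The changes were of one size within their errors. Alas2 stood at −0.44 (SE 0.2, edgeR adjusted p = 0.0535). Without the 3 animals whose libraries are in doubt it was −0.56 (adjusted p = 0.00727), and the globin genes were at −0.85 to −0.99.

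In the conditional line the fold changes were −0.57 for Hba-a1 (SE 0.105, edgeR adjusted p = 4.45e-05), −0.95 for Hba-a2 (SE 0.161, adjusted p = 1.49e-05), −0.66 for Hbb-bs (SE 0.0826, adjusted p = 2.05e-07) and −0.55 for Hbb-bt (SE 0.107, adjusted p = 7.7e-05), while Alas2 was at −0.01 (SE 0.156, adjusted p = 0.94). The background was 40.7% of 18078 genes called lower. These folds are smaller than the CPM ratios because TMM scaling centres the fit near the middle of all genes, whose median was −0.07 and −0.04. With library totals alone the median gene was at −0.59 and −0.55, the members were at −0.97 to −1.50 in the germline and −0.53 to −1.47 in the conditional line, and all 5 were called in each. The split of calls over all genes then moved from 36.7% higher and 42% lower to 14.7 and 61.3% in the germline line, and from 37.7 and 40.7% to 15.7 and 66.2% in the conditional line.

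The marker genes of other cells moved between the fractions as well. The summed level of 16 endothelial genes was 2540.2 CPM in germline nuclear libraries (median, 1409.9 to 4110.4) and 147 in synaptic ones (104 to 990.1), and 16 of 16 were called lower in the synaptic fraction, with a median log2 fold change of −4.29. In the conditional line it was −3.23, and the medians of 7 mural genes were −3.09 and −2.73. The globin genes changed less than any of these endothelial and mural medians. Meningeal genes had medians of −0.77 in the germline line, with 8 of 10 called lower, and −0.26 in the conditional line, with 5 of 10 called lower and 1 higher. Microglial genes went the other way, 10 of 10 called higher in both lines, with medians of 0.91 and 1.2. Their part in the globin values was not tested.

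The remaining genes of haem and red cells had no common direction between the fractions. Of 12 haem synthesis genes, 7 were called higher and 4 lower in the germline synaptic fraction (median 0.27), and 7 and 3 in the conditional one (median 0.17). Slc25a37, the mitochondrial iron importer, was lower in both lines, at −1.88 in the germline (edgeR adjusted p = 4.06e-08) and at −1.78 in the conditional animals (adjusted p = 1.11e-15). Tal1 stood at −2.41 in the germline line (edgeR adjusted p = 2.56e-07). On the log2 scale Ank1 rose by 0.99 and 0.92 (edgeR adjusted p = 2.08e-09 and 3.2e-12). Xpo7, a nuclear export receptor, rose by 0.43 in the germline line (adjusted p = 9.69e-07). In the conditional line Tfrc, the transferrin receptor, rose by 0.63 (adjusted p = 1.58e-09), and Ppox, an enzyme late in haem synthesis, fell by 1.61 on the log2 scale (adjusted p = 1.75e-10).

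**Figure D4:**
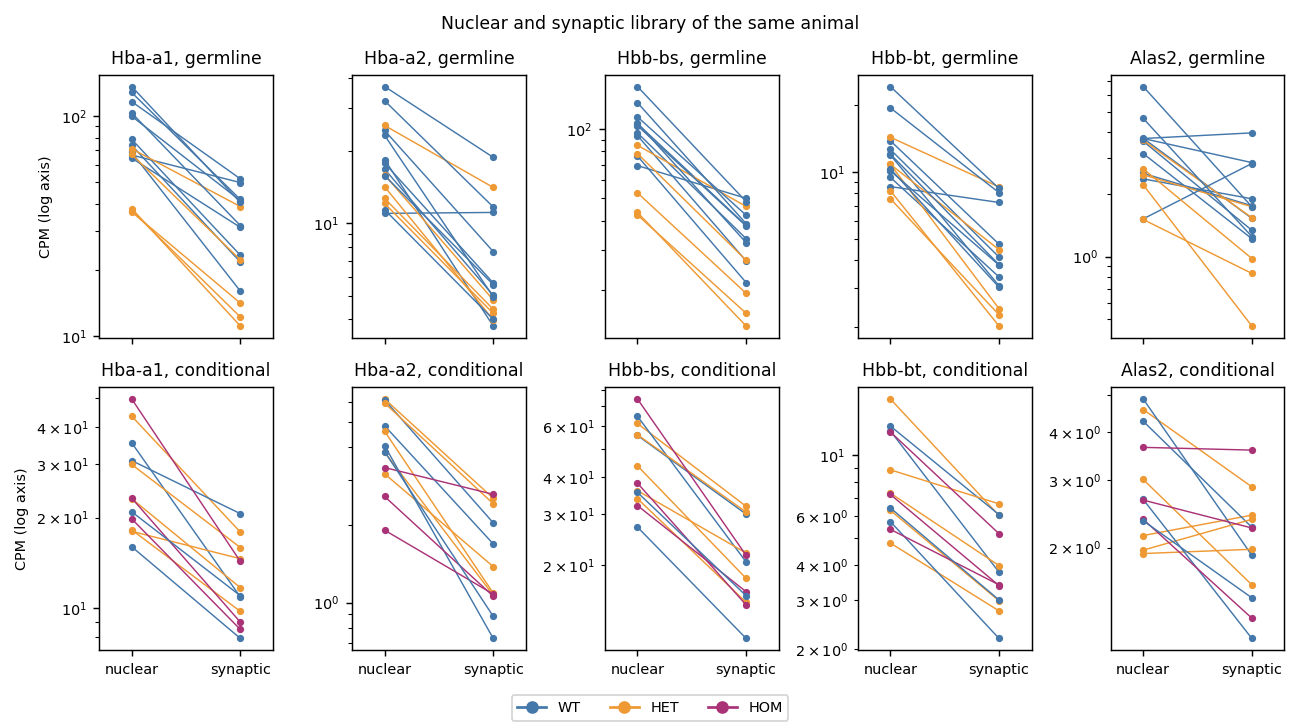
Level of each member in the nuclear and synaptic library of each animal (CPM on a log axis, lines join the libraries of an animal), for 15 germline and 12 conditional animals. Lines of the globin genes fall in every conditional and all but 1 germline pair, and those of Alas2 in 13 of 15 and 9 of 12.

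Over all pairs of a line, globin levels of the nuclear and the synaptic library tended to rise together. Of 10 such relations on log2 CPM, 7 had an adjusted permutation p under 0.05. The germline pairs mix date groups, however. Synaptic Hba-a1 was 11.1 to 23.3 CPM in the paired May animals and 31.2 to 51.9 in those of other dates, without overlap. For Hbb-bs the highest May animal had 33.5 CPM and the lowest other animal 32.2. The germline r and p over all animals thus cannot tell a relation between animals from a difference between dates. In the germline pairs (n = 15) Pearson's r was 0.814 for Hba-a1 (permutation p = 0.00037, rho 0.689 with p = 0.00581, adjusted 0.0022, and 0.787 without the 2 animals farthest from the median). It was 0.801 for Hbb-bs (permutation p = 0.00044, rho 0.629 with p = 0.0137, adjusted 0.0022, and 0.583 without 2). For Hbb-bt r was 0.709 (permutation p = 0.00279, rho 0.739 with p = 0.00231, adjusted 0.00698, and 0.508 without 2), and for Hba-a2 it was 0.666 (permutation p = 0.00745, rho 0.564 with p = 0.0307, adjusted 0.0124), which fell to 0.356 without 2 and so rests on those animals. Alas2 had an r of 0.216 (permutation p = 0.442, rho 0.221 with p = 0.426, adjusted 0.442, and 0.0592 without 2).

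Within the 7 animals of May, r was 0.901 for Hba-a1 (exact permutation p = 0.0222), 0.948 for Hbb-bs (exact permutation p = 0.00159), 0.696 for Hbb-bt, 0.292 for Hba-a2 and 0.728 for Alas2 (exact permutation p = 0.116). These May animals were split by sex. The males, all labelled HET, lay below the females, most of them WT, for Hba-a1 and Hbb-bs in both fractions. Males and females also bore different batch labels within May. The part of sex, genotype and batch label in the May values was not tested. The other date groups held too few pairs. Without the 3 animals in doubt (n = 12) the values were 0.776 for Hba-a1 and 0.786 for Hbb-bs, while Hba-a2 at 0.294 and Hbb-bt at 0.508 no longer passed. These 12 animals mix the date groups as well. In the conditional pairs (n = 12) r was 0.796 for Hbb-bt (permutation p = 0.00259, rho 0.811 with p = 0.00195, adjusted 0.00698, and 0.683 without 2) and 0.768 for Hbb-bs (permutation p = 0.00436, rho 0.699 with p = 0.0141, adjusted 0.00872, and 0.924 without 2). For Hba-a1 it was 0.631 (permutation p = 0.0291, rho 0.559 with p = 0.0625, adjusted 0.0416, and 0.557 without 2). Hba-a2 had 0.492 (permutation p = 0.105, rho 0.441 with p = 0.155, adjusted 0.131, and 0.383 without 2) and Alas2 0.32 (permutation p = 0.313, rho 0.133 with p = 0.684, adjusted 0.348, and 0.258 without 2).

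Chd8 genotype changed no member past the threshold in any of the 9 genotype comparisons in edgeR. At an unadjusted p under 0.05 there were 2 members in the germline nuclear fraction, where 7.38% of all genes had such a p, and 1 in conditional nuclear HOM, where 11.6% had one. In germline cortex 0 of 5 members were called, against 0.334% of 17074 genes, and their log2 fold changes ran from −0.11 to 0.04. Hba-a1 there had a median of 52.5 CPM in WT (31.5 to 115) and 53.7 in HET (32.5 to 101), ranges that nearly coincide. The 95% interval of its log2 fold change was −0.38 to 0.32 and that of Hbb-bs −0.30 to 0.37, so changes within these bounds stay possible. In the germline cytosolic fraction the members were at −0.30 to −0.23 and in the germline synaptic fraction at −0.23 to 0.23, with 0 of 5 called against a background of 0% in both. Without the 2 synaptic libraries with a nuclear profile the synaptic members were at −0.11 to 0.33, with 0 of 5 called against 0.842% of genes. In the conditional cortex they were at −0.12 to 0.18, also 0 of 5 against 0%. No member had an unadjusted p under 0.05 in these 4 sets, against 9.25% of genes in germline cortex, 3.28% in the cytosolic, 11% in the germline synaptic fraction and 3.08% in conditional cortex. DESeq2 called no member in them either.

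The germline nuclear fraction held the lowest p of the members. Hba-a1 had 52.1, 83.9 and 137 CPM as lowest, median and highest of the 12 WT libraries, and 36.7, 67 and 106 CPM in the 9 libraries labelled HET. Hbb-bs had 62.5, 99.8 and 153 CPM against 42.4, 78.3 and 88.2. The groups overlapped for both genes, with the lowest values in libraries labelled HET and the highest in WT. The log2 fold change was −0.52 for Hba-a1 (SE 0.119, unadjusted p = 0.000181, edgeR adjusted p = 0.268, rank 13 of 19912 genes by p) and −0.47 for Hbb-bs (SE 0.119, unadjusted p = 0.000529, adjusted p = 0.359, rank 27). The other members were at −0.21 for Hba-a2 (adjusted p = 0.853), −0.15 for Hbb-bt (adjusted p = 0.889) and −0.18 for Alas2 (adjusted p = 0.926). In all, 0 of 5 were called, against 0.0151% of genes.

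The call on Hba-a1 depended on the tool. DESeq2 gave it the same fold change with an adjusted p of 0.0224, where 0.0904% of genes were called. With no filter on low counts edgeR called Hba-a1 (adjusted p = 1.16e-05) and Hbb-bs (adjusted p = 0.000105), where 0.749% were called. Leaving out 1 library at a time, Hba-a1 stayed between −0.59 and −0.49 and did not pass in edgeR.

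Batch dates, sex and genotype were unevenly spread in that fraction. Hba-a1 read 89.3, 128, 137 and 104 CPM in the WT libraries of June and July, and 106, 79.2 and 75.9 in those labelled HET. For May it read 68.4, 78.5, 73.7 and 52.1 CPM in WT, and 67, 37.2, 36.7 and 38.0 in the libraries labelled HET. For March and April it read 64.5, 66.6, 117 and 100 CPM in WT, and 53.4 and 71.1 in those labelled HET. The groups overlapped within each set of dates, and June and July libraries stood above those of May in either genotype. By the labels, sex went with genotype within the dates. In May the only WT male held 52.1 CPM, and the only female labelled HET held 67. All WT libraries of June and July were male, and those labelled HET of March and April were female. Within date groups, with sex in the fit, the log2 fold change was −0.58 in June and July, −0.30 in May and −0.14 in March and April for Hba-a1, and −0.19, −0.30 and −0.22 for Hbb-bs. The June and July values rest on the only male labelled HET there. Both libraries that went against their sex label, WT male 7 and HET female 4, are of these dates, so the sex term there is in doubt. Over all dates without these 2 libraries, the log2 fold change was −0.56 for Hba-a1 (edgeR adjusted p = 0.211) and −0.46 for Hbb-bs (adjusted p = 0.236). The summed endothelial level was 2737 CPM in WT (1508 to 4110.4) and 2058 in libraries labelled HET (1409.9 to 3024), and 0 of 16 endothelial genes were called, with a median of −0.40. Its part in the globin values was not tested.

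In the conditional nuclear fraction 1 member stood apart from its partner copy. Hba-a2 read 4.85, 6.11, 4.06 and 3.85 CPM in the 4 WT libraries, 3.83, 6.16, 3.16, 5.94, 4.62 and 4.46 in the 6 libraries labelled HET, and 2.58, 1.91 and 3.34 in the 3 HOM libraries. Every HOM library lay below every WT library. The animal with 2 genotype labels, whose nuclear library is HET female 4 and whose synaptic library is labelled HOM, had 4.46 CPM, within the WT range, so with it as HOM the groups would overlap. Without WT male 1, which had the highest neutrophil sum, the log2 fold change was −0.88 (edgeR adjusted p = 0.67). Groups without overlap in that direction were found for 6.64% of genes in this contrast. The log2 fold change was −0.84 (SE 0.259, unadjusted p = 0.00483, edgeR adjusted p = 0.426, rank 203 of 21133). Hba-a1 read 35.4, 30.9, 16.0 and 20.9 CPM in WT and 19.8, 23.2 and 49.5 in HOM, overlapping, at 0.25 (adjusted p = 0.737). The Hba-a2 share of alpha counts was accordingly 8.49% in HOM (6.33 to 11.5) and 16.1% in WT (12.1 to 20.2), which did not overlap, while HET female 4 had 25.1%. The exact permutation p was 0.0571, the smallest that 3 against 4 libraries allow, and 0.358 after adjustment over the 26 tests on shares and ratios, none of which passed. The summed endothelial level was 888 CPM in HOM (515.3 to 1404) and 1638 in WT (932 to 2430.1), with 0 of 16 genes called and a median log2 fold change of −0.93, and its part in the Hba-a2 value was not tested.

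The lower Hba-a2 of HOM was not seen in the synaptic fraction. There Hba-a2 read 1.69, 2.04, 0.727 and 0.886 CPM in WT and 1.06, 1.08, 2.63, 0.694 and 0.645 in HOM, overlapping throughout, at −0.14 (SE 0.388, edgeR adjusted p = 0.983). The difference between the fractions was 1.04 for Hba-a2 (SE 0.377, unadjusted p = 0.0118, adjusted p = 0.892), so it did not pass. Over the 12 conditional pairs, genotypes pooled, the Hba-a2 share of the nuclear library went against that of the synaptic library of the same animal. The r was −0.657 (permutation p = 0.0203, rho −0.643 with p = 0.0277, and −0.558 without the 2 animals farthest from the median, adjusted 0.0304 over 3 relations). This relation was added after the values were seen. The HOM animals held the lowest nuclear shares of these pairs, at 6.33 to 11.5%, and the part of genotype in r was not tested. The 3 relations include the one over all germline pairs. No value is given for that one, since the germline synaptic shares formed separate clusters by date. These were at 10.9 to 12.2% in June and July and 17.8% or more on the other dates. Over the 7 germline pairs of May r was 0.705 (exact permutation p = 0.105, rho 0.821 with p = 0.0341, adjusted 0.105). The May shares were clustered as well. The males, all labelled HET, lay above the females in both fractions and bore other batch labels. The part of sex, genotype and batch label in the May value was not tested. In the interaction fits 0 of 5 members were called, against 0% of 21515 genes in the germline and 0% of 21577 in the conditional line. At an unadjusted p under 0.05 there was no member in the germline fit, against 7.21% of genes, and Hba-a2 alone in the conditional one, against 4.78%. In the conditional nuclear fraction the members were at −0.84 to 0.25 in HOM and −0.24 to 0.12 in libraries labelled HET, and in the synaptic fraction at −0.41 to 0.28 in HOM and 0.25 to 0.52 in HET, with 0 of 5 called against 0% in each. Outside HOM of the nuclear fraction no member had an unadjusted p under 0.05, against 4.45% of genes for the nuclear libraries labelled HET, 4.37% in synaptic HET and 4.96% in synaptic HOM. Without the animal with 2 genotype labels the members were at −0.23 to 0.21 in the nuclear libraries labelled HET and −0.34 to 0.36 in synaptic HOM, with 0 of 5 called against 0% in both. HET and HOM share their WT libraries, and the synaptic values of HET lay above WT for all 5 members while the lowest adjusted p was 0.995. None of the genes in the other globin, haem synthesis or red cell lists was called in the 9 genotype comparisons.

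**Figure D5:**
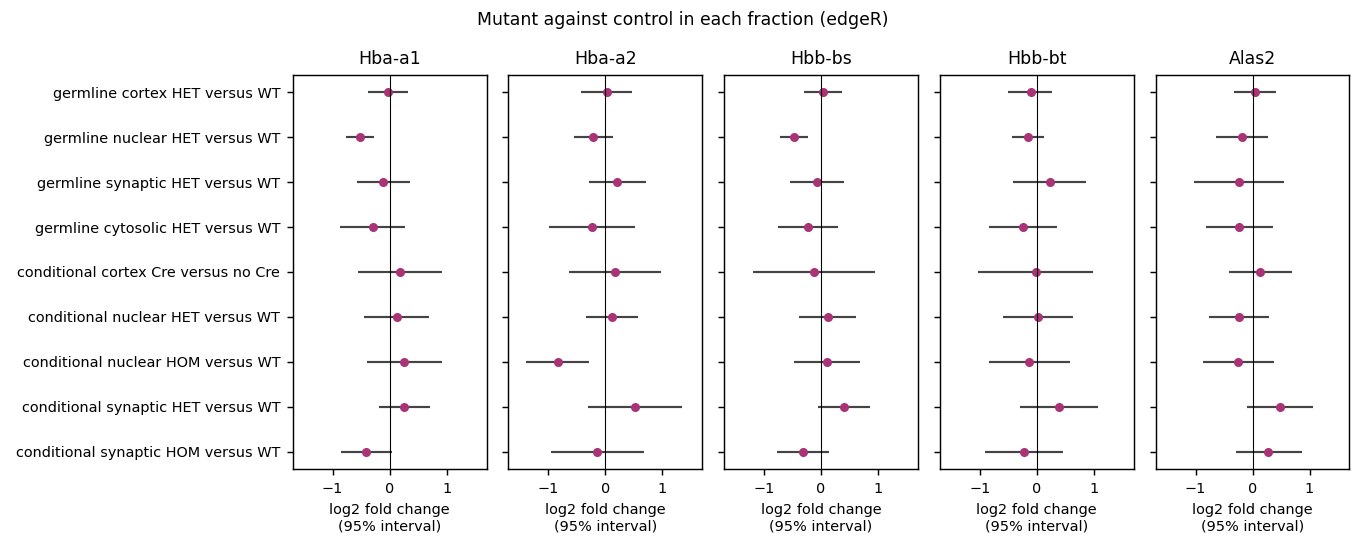
Log2 fold change of each member with Chd8 genotype in the 9 genotype comparisons (points, with 95% intervals from edgeR). Intervals include 0 except those of Hba-a1 and Hbb-bs in the germline nuclear fraction and of Hba-a2 in conditional nuclear HOM, and none of the values passes after adjustment.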

How the data were processed

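Gene-level raw counts as deposited in 5 tables were the starting point. They cover 123 of 127 labelled poly(A) libraries; the other 4, all cytosolic, were not analysed here. In 16 cases a library stood in 2 tables with identical counts and was used once. Per the submitters' processing notes, reads were aligned with STAR 2.5.4b and counted with featureCounts 2.0.0 on GRCm38 (mm10). The conditional cortex table came from featureCounts 1.6.0 with Ensembl release 95 and neither a strand nor a read-pair option, per the file headers. Strand settings of the remaining tables are not stated in any label or header read here. Even counts made up 56.3 to 74.7% of counts from 10 to 200 per library, so counts are taken as reads, not fragments. Among the counts of the members alone the share ran from 45.6% in the germline synaptic to 66.7% in the cytosolic fraction. The reading thus rests on all genes and not on the members. Gene rows numbered 54838, of which 54723 matched a symbol, and a Cre row of at most 0.00135% of a library was left out.

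Tests used edgeR 4.0.16 (quasi-likelihood F, TMM scaling, filterByExpr) in R 4.3.3 with limma 3.58.1, and Benjamini-Hochberg adjustment over all genes at 0.05. Every genotype fit within an experiment held sex. Germline cortex also held the batch label. The germline nuclear and synaptic fits held 3 date groups of the batch labels, whose digits were read as month and day. The paired and interaction fits held animal and fraction in place of these terms, and the replicate block took the place of sex. Nuclear and synaptic libraries were paired by the animal number in the library name, as a block (15 germline and 12 conditional animals). The fits of germline nuclear HET, conditional nuclear HOM and germline synaptic against nuclear were also run on simulated counts. Those counts held no batch, sex or animal effects, and the outcome is not reported here. CPM is counts per mega count of the deposited gene counts. Permutation tests (scipy 1.17.1) were two-sided, exact or with 100000 resamples. DESeq2 1.42.0, RLE scaling, no filter, replicate blocks and left-out libraries were the alternatives. Library totals alone, single date groups and copy shares were added after the data were seen.

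Named genes were the 5 members, Chd8, up to 4 called genes of the haem and red cell lists per comparison, and the 6 genes most like Hbb-bs. Slc4a1, Epb42, Tspan33, Klf1, Gata1, Tal1, Bnip3l, Bpgm, Slc25a37, Alas1 and the other red cell and globin genes named by level were singled out after their values were seen. The members and lists were chosen with earlier results of these data known. Sequences came from RefSeq and GENCODE M21 on GRCm38, and all 5 members matched the promoter table.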

Additional observations from a re-analysis of the deposited data

Results flagged for a closer look

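Of 88 sets of 4 to 10 libraries, each a member level or an alpha to beta ratio in 1 group, 8 had a value that stood apart from the rest of its group by Dixon's test. Chance gives about 1 in 20. In the germline cytosolic HET group, female 2 had 5.55 CPM of Hba-a2, where the next highest of 7 libraries had 2.72, and 103 CPM of Hbb-bs, where the next had 67.2. In the germline synaptic HET group, female 2 had 3.53 CPM of Alas2, with the next of 7 at 1.74.

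In the conditional synaptic HOM group, male 2 had 2.63 CPM of Hba-a2, with the next of 5 at 1.08. Among the conditional nuclear libraries labelled HET, male 1 had 15.9 CPM of Hbb-bt, with the next of 6 at 8.83, and the highest alpha to beta ratio, 0.643 against 0.555. The ratio was also high in the germline nuclear library labelled HET female 4, at 1.38 with the next of 9 at 0.999, which is one of the libraries that went against their sex label. In the conditional synaptic WT group, male 1 had the lowest ratio, 0.52, where the next of 4 libraries had 0.629.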

How the results depend on the processing

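Of 191 results under settings other than leaving out a library, 167 kept their direction and side of the threshold, or their size. In the germline nuclear fraction 1 member was called with DESeq2 and 2 with no filter, against 0. Direction turned there for Hba-a2 (0.12 in March and April, 0.04 in June and July), Hbb-bt (0.22 and 0.01) and Alas2 (0.40 in March and April, 0.19 in May), with no such value called; the cause was not tested. Between conditional fractions Alas2 was at 0.03 with no filter and at −0.08 to 0.06 when 1 animal was left out. Between germline fractions 4 to 5 members were called when 1 animal was left out, Alas2 passing in 5 of 15 cases, and also with DESeq2 (adjusted p = 0.0314), RLE scaling (0.0479) and no animal block (0.0467). Of the 10 same-animal relations 4 passed without the libraries in doubt, with fewer animals. The highest over the lowest median CPM of the 7 experiments was 9.82 for Hbb-bs and 9.86 for both beta copies, and 6.82 for Hba-a1 and 8.18 for both alpha copies.

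Replicate numbers did not pair the libraries: in germline cortex 6 of 14 same-numbered pairs deviated together (correlation over 0.1), and in the nuclear fraction 3 of 9. With the replicate block 0 members were called in any of the 9 genotype comparisons, and Alas2 in the germline nuclear fraction moved to 0.10. Leaving out 1 library called 0 members in those comparisons, with edgeR adjusted p of 0.102 to 0.608 for Hba-a1 in the germline nuclear and 0.185 to 0.992 for Hba-a2 (−0.99 to −0.72) in the conditional nuclear HOM comparison. Depth limits the precision of members with few counts: the smallest count in a library was 20 for Hba-a2 and 22 for Alas2.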
